A study of Mus musculus with 13 samples.

Results

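Glutathione enzymes and the epoxide hydrolase gene Ephx2 were examined across 3 normal mouse ovaries and 10 ovarian tumors. The 10 genes, which are Ephx2, Gsta3, Gsta4, Gstm1, Gstm2, Gstp1, Gstt1, Gpx1, Gpx3 and Gpx4, were picked by name from the 53465 genes of the expression table, and all 10 were among the 17277 genes that reached 1 TPM in 3 or more libraries. TPM is a transcript level scaled by gene length and by library total, so levels of different genes can be compared roughly within a library. The deposited gene lengths differ from those of single transcripts, as 4344 against 1457 bases for Gsta3 and 757 against 821 for Gstp1. Levels compared between genes, and shares built on them, depend on these lengths. Ephx2 and its companions were chosen because Ephx2 was known to be among the genes with the largest decrease in tumors, so the difference between tumors and ovaries is given for these genes as a description with no p-value, and counts past a threshold stand beside those of all genes only as a description.

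The normal samples (WT) were untreated ovaries labelled WT from C57BL/6 females, and the labels attach to them the same protocol text, with mice of 8 to 12 weeks, as to the tumors. The tumors (MP) were non-treated Myc;p53-/- ovarian EPO-GEMM tumors. In this electroporation-based model a plasmid mix was injected into the ovary of a C57BL/6 female aged 8 to 12 weeks and driven into cells by electric pulses. For MP it carried a MYC transposon with Sleeping Beauty transposase and Cas9 with a guide RNA against Trp53. No Cre, promoter or sort restricted the edit to a cell type, several clones can share a tumor, and RNA came from whole tissue at end point. MYC was delivered as a transgene to some cells, while Cas9 cuts leave small insertions or deletions in Trp53 that need not remove its RNA. Libraries were made from polyadenylated RNA and read as 76 bp single ends.

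Depth ranged from 31445004 to 64013840 reads assigned to genes in WT and from 3892690 to 19906507 in MP, and a single read on 1 kb of transcript equalled 0.0513 to 0.790 TPM. A code in the sample descriptions split the libraries into 3 submissions, of which the first held the 3 WT and MP 1 to MP 3, the next MP 4 to MP 6 and the last MP 7 to MP 10. MP 2 stood apart, with 55.1% of its TPM in 10 genes and 15.4% in mitochondrial genes. Trp53 RNA was 80.7 to 85.4 TPM in WT and 4.30 to 26.0 TPM in MP 1 to MP 9, but 187 TPM in the library labelled MP 10, above every WT ovary. Myc RNA counted at the mouse gene was 126 to 129 TPM in WT and 7.09 to 419 TPM in MP, a count that need not include the transgene. Without MP 2 and MP 10, the differences given below were -8.62 for Ephx2, -4.89 for Gpx3 and -3.59 for Gstt1, and Gstt1 was then not past the threshold used further on.

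Glutathione is a tripeptide that cells use as a nucleophile and as a reductant. Glutathione S-transferases, named by class as alpha (Gsta), mu (Gstm), pi (Gstp) and theta (Gstt), join it to electrophilic compounds such as lipid peroxidation products and drugs, which can then be exported. Glutathione peroxidases use it to reduce hydrogen peroxide and lipid hydroperoxides. Gpx1 encodes the cytosolic enzyme, Gpx3 the secreted enzyme found in plasma, and Gpx4 the enzyme that reduces phospholipid hydroperoxides in membranes and restrains ferroptosis. Ephx2 encodes soluble epoxide hydrolase, which opens epoxides of fatty acids to diols and so ends the signaling of epoxyeicosanoids. The ovary makes steroids, a process that produces reactive oxygen, and its steroidogenic and granulosa cells express several of these enzymes.

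The 3 peroxidases of this group are selenoproteins, and their sequences show what sets them apart from most genes. Each reads an in-frame TGA, a stop codon elsewhere, as selenocysteine, the residue that carries the catalysis. The lines give 63 coding bases around this codon from the GENCODE M21 transcripts, 5′ to 3′, with the selenocysteine codon in capitals.
Gpx1: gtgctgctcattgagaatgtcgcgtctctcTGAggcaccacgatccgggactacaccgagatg
Gpx3: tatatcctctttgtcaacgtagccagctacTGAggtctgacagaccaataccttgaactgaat
Gpx4: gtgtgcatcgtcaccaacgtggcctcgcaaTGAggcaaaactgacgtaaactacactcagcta
On GRCm38, the codon was codon 47 of Gpx1, at chr9:108339451-108339453, codon 73 of Gpx3, at chr11:54907256-54907258, and codon 129 of the annotated Gpx4-201 transcript, at chr10:80054737-80054739, all on the plus strand. None of the other 7 members had an in-frame TGA in its coding sequence.

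Gstm1 and Gstm2 are neighbouring mu-class genes, and their likeness matters for how reads could be told apart. Their coding sequences of 654 bases had 562 identical bases, or 85.9%. The lines below give coding bases 562 to 651 of each, the stretch of 90 bases with the most differences, with the 22 bases that differ in capitals.
Gstm1: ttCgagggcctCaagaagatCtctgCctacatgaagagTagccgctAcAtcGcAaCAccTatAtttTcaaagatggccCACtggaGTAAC
Gstm2: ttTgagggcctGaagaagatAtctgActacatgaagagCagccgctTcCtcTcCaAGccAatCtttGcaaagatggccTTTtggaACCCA
Over whole transcripts, 30 stretches of 76 bases of Gstm2 (1.79%) and 177 of Gstm1 (11.4%) were also present in a transcript of another gene, including Gstm2-ps1 and Gstm3 for Gstm1. The share was 29.0% for Gstp1, which shares stretches with Gstp2 and Gstp-ps, and 29.6% for Gpx4, which shares them with Gpx4-ps2. Reads from such stretches could be split or dropped in counting, so the levels of Gstp1, Gpx4 and Gstm1 are uncertain to that extent. The other 6 members shared no such stretch.

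Many glutathione genes are targets of the transcription factor NRF2, whose binding element has the core TGACNNNGC. Promoter sequences from RefSeq on GRCm38.p6, which ran from 250 bases before to 50 bases after a transcription start, were matched by symbol for 8 of the 10 members, in 12 windows. This core was found on either strand in 1 of the 12 windows, and in 4071 of the 32851 promoter windows of all genes (12.4%). The window was that of Gsta3, whose response to NRF2 is well known, and 99 bases around the match, at chr1:21240419-21240517 on the plus strand, are shown with the core in capitals.
Gsta3: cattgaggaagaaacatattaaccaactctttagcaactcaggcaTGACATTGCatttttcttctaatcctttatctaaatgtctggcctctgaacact
The core began 121 bases before the start site.

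Ephx2 (ENSMUSG00000022040, chr14:66084374-66124500 on the minus strand of GRCm38, 19 exons and 554 codons) had a higher mean level than 99.8% of tested genes in the normal ovary and than 41.7% of them in tumors. Its level was 1877, 2251 and 2370.3 TPM in WT 1 to WT 3. In MP it ranged from 0.280 TPM in MP 1 to 24.1 TPM in MP 9, with a median of 4.69 TPM. The 2 groups did not overlap, and every tumor lay far below every ovary. The WT mean was 2166 ± 257 TPM (SD, n = 3) and the MP mean 6.78 ± 7.47 TPM (SD, n = 10), a ratio of means of 319.6. On the log2(TPM + 1) scale used for all differences here, the difference, MP minus WT, was -8.77 ± 0.82 (SE), the 5th lowest among the 17277 genes.

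The low Ephx2 values in tumors rested on few reads. MP 1 had 5 reads of Ephx2, with an exact 95% Poisson interval of 0.0909 to 0.654 TPM, and MP 7 had 2 reads, with an interval of 0.0402 to 1.20 TPM. MP 9 had 159 reads and an interval of 20.5 to 28.1 TPM. These intervals cover counting error only, and they do not overlap between MP 9 and the lowest tumors, which differed from MP 9 by more than counting error. The order among MP 1, MP 2 and MP 7 could not be resolved at this depth. By contrast, WT libraries held between 51510 and 114763 reads of Ephx2.

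**Figure D1:**
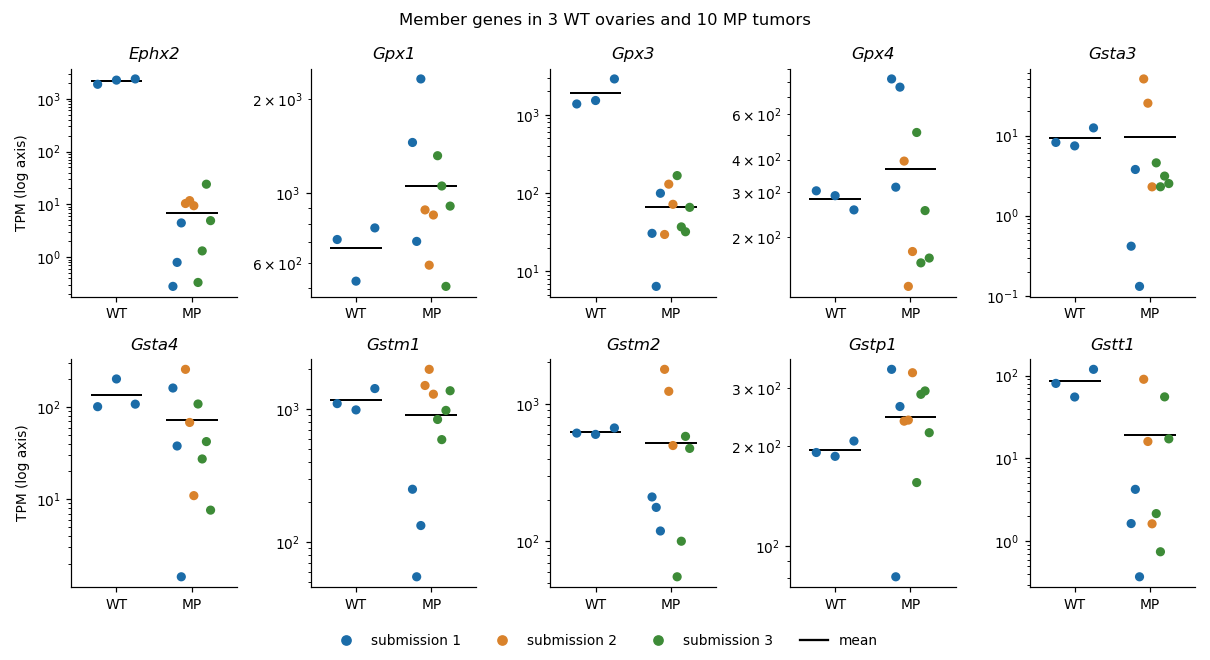
TPM of each of the 10 genes in every library, on log axes, with each point 1 library colored by submission and the black line the group mean. Ephx2 and Gpx3 show no overlap between 3 WT ovaries and 10 MP tumors, while the other 8 genes overlap.

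The glutathione peroxidase genes divided into 1 that was low in all tumors and 2 that were not. Gpx3 (ENSMUSG00000018339, chr11:54902453-54910377, plus strand) was at 1379, 1527 and 2879.6 TPM in WT 1 to WT 3, and between 6.45 TPM in MP 2 and 168 TPM in MP 7, with a median of 51.5 TPM. Its groups did not overlap. The mean was 1929 ± 827 TPM (SD, n = 3) in WT and 67.2 ± 51.4 TPM (SD, n = 10) in MP, a difference of -5.19 ± 0.71 on the log2 scale. The Gpx3 value of MP 2 was the lowest by a wide margin, and that library was also the one with most TPM in few genes.

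Gpx1 (ENSMUSG00000063856, chr9:108338903-108340343, plus strand) was abundant in both tissues. WT 1 to WT 3 had 714, 526 and 777 TPM. Tumors ranged from 506 TPM in MP 9 to 2313 TPM in MP 3, with a median of 899 TPM. Of the 10 tumors, 7 lay above all WT ovaries and 1 below all of them, so the groups overlapped. The log2 difference was 0.54 ± 0.39.

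Gpx4 (ENSMUSG00000075706, chr10:80047166-80056439, plus strand) was at 303, 289.8 and 255 TPM in WT 1 to WT 3. In MP it ranged from 129 TPM in MP 5 to 822 TPM in MP 1, with a median of 283 TPM. Tumors lay on either side of the ovaries, with a log2 difference of 0.09 ± 0.53 that was smaller than its error.

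The makeup of the peroxidase RNA thus differed between tissues. Gpx3 made up 57.6% to 73.6% of the summed TPM of Gpx1, Gpx3 and Gpx4 in WT, and 0.631% to 15.3% in MP. The sum itself was 2343 to 3912 TPM in WT and 792 to 3177 TPM in MP, so the sums overlapped while the Gpx3 shares did not. Since the share is built from the same values that are described above, it is also given without a test.

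**Figure D2:**
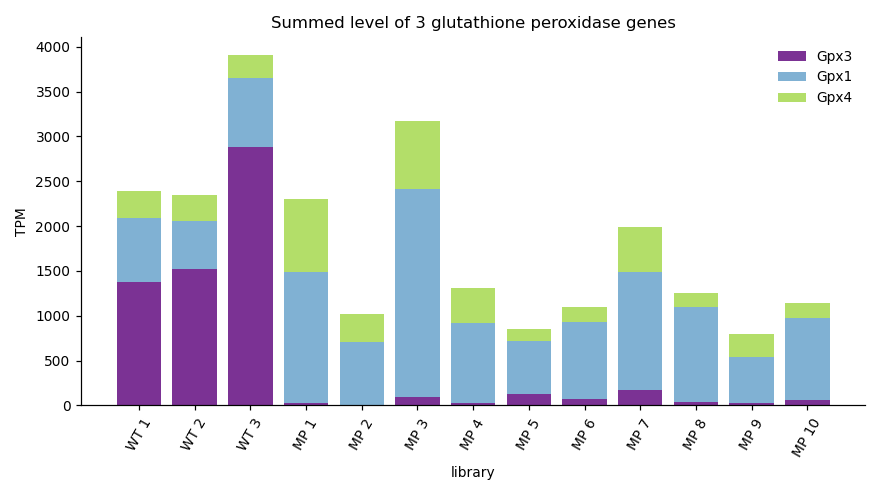
Stacked bars of the TPM of Gpx3, Gpx1 and Gpx4 in each library, starting at 0. Gpx3 is the largest part of the bar in 3 of 3 WT ovaries and makes up 0.631% to 15.3% of it in the 10 MP tumors.

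Among the transferases, Gstt1 (ENSMUSG00000001663, chr10:75783813-75798584, minus strand), which encodes a theta-class enzyme active on small halogenated compounds and epoxides, was low in most tumors. It was at 80.6, 55.2 and 119 TPM in WT 1 to WT 3, and ranged from 0.373 TPM in MP 3 to 90.3 TPM in MP 4 with a median of 3.20 TPM. In 8 tumors Gstt1 lay below every WT ovary, whereas MP 4 (90.3 TPM) and MP 9 (55.4 TPM) lay within the WT range. The log2 difference was -3.48 ± 1.14.

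The 2 alpha-class genes varied widely. Gsta4 (ENSMUSG00000032348, chr9:78182774-78209349, plus strand), whose enzyme conjugates the lipid peroxidation product 4-hydroxynonenal, was at 101, 202 and 108 TPM in WT 1 to WT 3 and from 1.44 TPM in MP 3 to 257 TPM in MP 4, median 40.0 TPM. Gsta3 (ENSMUSG00000025934, chr1:21240589-21265661, plus strand), whose human counterpart also has a steroid isomerase activity, was at 8.20, 7.42 and 12.4 TPM in WT 1 to WT 3. In tumors Gsta3 ranged from 0.131 TPM in MP 3 to 50.8 TPM in MP 4, median 2.82 TPM. MP 4 held the highest and MP 3 the lowest level of both genes, and the groups overlapped for both. The log2 differences were -1.86 ± 1.08 for Gsta4 and -1.03 ± 0.92 for Gsta3.

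The mu-class genes Gstm1 (ENSMUSG00000058135, chr3:108012255-108017973, minus strand) and Gstm2 (ENSMUSG00000040562, chr3:107981702-107986453, minus strand), which encode major cytosolic conjugating enzymes, were the most abundant transferases of the group in WT. Gstm1 was at 1103, 989 and 1431 TPM in WT 1 to WT 3 and ranged from 55.1 TPM in MP 2 to 1995 TPM in MP 5, with a median of 909 TPM. Gstm2 was at 612, 599 and 667 TPM in WT 1 to WT 3 and ranged from 55.3 TPM in MP 7 to 1779.5 TPM in MP 4, with a median of 342 TPM. The log2 differences, -0.98 ± 0.89 for Gstm1 and -1.02 ± 0.84 for Gstm2, were close to their errors, and tumors lay above and below the ovaries. Within submission 1, which held all WT ovaries, MP 1 to MP 3 lay below every WT ovary for Gstm1, Gstm2 and Gsta3. The differences there were -3.23 ± 0.55, -1.92 ± 0.35 and -2.36 ± 0.52. In that fit the median over all genes was -1.44 and 9504 genes were lower. The share of all genes with MP 1 to MP 3 below every WT ovary was not computed, so nothing is read from this.

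The neighbours did not keep a fixed proportion in tumors. The ratio of Gstm1 to Gstm2 TPM was 1.65 to 2.14 in WT, and ran from 0.312 in MP 2 to 15.2 in MP 7. In MP 7 Gstm1 was at 838 TPM while Gstm2 was the lowest of all libraries.

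Gstp1 (ENSMUSG00000060803, chr19:4035407-4037921, minus strand), the pi-class gene that is abundant in many tumors, was the steadiest of the 6 transferases of this group. It was at 192, 187 and 208 TPM in WT 1 to WT 3, and ranged from 80.6 TPM in MP 2 to 342 TPM in MP 1, median 252 TPM. MP 2 and MP 7 lay below every WT ovary and the other 8 tumors above, with a log2 difference of 0.23 ± 0.38. Because the other transferases varied, Gstp1 made up 8.16% to 9.15% of the summed TPM of the 6 transferases in WT and 6.07% to 50.9% in MP, with the highest share in MP 3.

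Over the 10 genes, Ephx2, Gpx3 and Gstt1 were past the threshold of an adjusted p of 0.05 in limma and lower, and 0 were past it and higher. Of all 17277 genes, 14.3% were past it and lower and 2.51% higher. In either direction this was 3 of 10 against 16.8%. Every MP lay below every WT for Ephx2 and Gpx3, as for 16.4% of all genes, and every MP above every WT for 0 of the 10, as for 3.02% of all genes. The 2 without overlap compare with 19.4% of all genes. Since this difference chose the group, nothing is read from these counts. The median log2 difference was -1.03 over the 10 genes and -0.58 over all genes. Among the 10, Ephx2 and Gpx3 stood 5th and 55th from the lowest, and Gstp1, Gpx1 and Gpx4 had positive differences, although that of Gpx4 turned negative without MP 1 (-0.068) or MP 3 (-0.056).

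These values moved with how a library was scaled. Under median-of-ratios scaling the median difference over all genes was -0.02 instead of -0.58, and calls across all genes were 1276 higher and 1896 lower, instead of 433 and 2463. Quantile normalization gave 0.08, with 1904 higher and 2091 lower. The Ephx2 difference was -8.16 and the Gpx3 difference -4.48 under median-of-ratios scaling, while Gpx1 moved to 1.26, Gstp1 to 0.95 and Gpx4 to 0.81. Under that scaling Gstm1 moved to -0.26, Gstm2 to -0.30, Gsta3 to -0.48, Gsta4 to -1.17 and Gstt1 to -2.86. Under quantile normalization the genes did not move one way, with Ephx2 at -8.83, Gpx3 at -5.46 and Gpx1 at 0.38 but Gstt1 at -2.95 and Gsta3 at -0.091. Within submission 1 alone, where the median over all genes was -1.44, the Ephx2 difference was -9.86 and the Gpx3 difference -5.99. Over 24 alternatives the Ephx2 difference spanned -9.86 to -8.16 and the Gpx3 difference -5.99 to -4.48. The count of 3 genes past the threshold was 2, without Gstt1, when any 1 of WT 1, WT 2, WT 3, MP 1, MP 2, MP 3, MP 6, MP 7 and MP 8 was left out, with Gstt1 differences of -3.76 to -3.21, and also under either scaling, with a pseudocount of 0.1, with no filter and without MP 2 and MP 10, so Gstt1 was past it in 10 of 24 alternatives. The count was 6 within submission 1, where Gsta3, Gstm1 and Gstm2 were past it as well. Across all genes in that fit, 9504 were lower and 1043 higher. The same 6 genes were past it with submission as a covariate, beside 8534 lower and 894 higher across all genes. With the replicate block they were also the same 6, beside 9803 lower and 1087 higher. Nothing is read from these counts either. Gstp1 turned negative, -0.01, within submission 1.

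**Figure D3:**
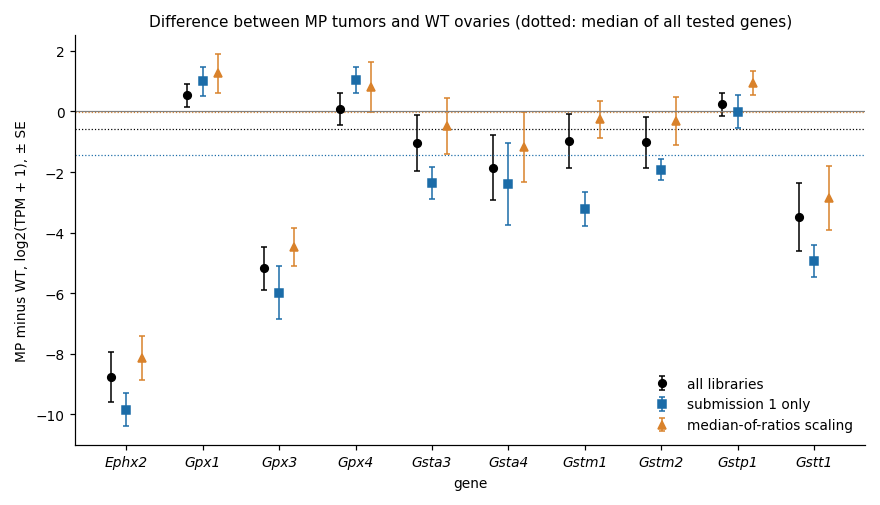
Difference between MP and WT in log2(TPM + 1) with its SE for each gene, from all libraries, from submission 1 only and after median-of-ratios scaling. The dotted lines are the medians of all tested genes, -0.58, -1.44 and -0.02, and 7 of the 10 genes lie below them in all 3 fits, the others being Gstp1, Gpx1 and Gpx4.

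Normal ovary and tumor also differed in the RNA of whole cell types. Markers of steroidogenic cells, led by Hsd3b1 and Cyp11a1, summed to 29798 to 34408 TPM in WT and 63.5 to 1391 TPM in MP, and 8 of 10 were lower in limma. Granulosa cell markers, led by Inha and Amhr2, summed to 4120.03 to 7436 TPM in WT and 32.2 to 2178 TPM in MP, with 7 of 9 lower, and oocyte markers, led by Padi6 and Gdf9, to 398 to 575 TPM in WT and 1.38 to 23.7 TPM in MP, with 9 of 9 lower and 1 of 9 at 0 in all tumors. Markers of epithelium (Krt18, Krt8) summed to 240.3 to 270.02 TPM in WT and 5.69 to 1152 TPM in MP, with 4 of 7 tested lower, and those of ovarian stroma (Col3a1, Col1a1) to 1237 to 2191 TPM and 89.5 to 4113 TPM, with 5 of 8 lower. Smooth muscle markers (Acta2, Actg2) summed to 1483 to 1729 TPM and 55.0 to 1291 TPM, with 5 of 6 lower. Endothelial markers (Cdh5, Pecam1) summed to 304 to 322 TPM and 6.30 to 223 TPM, with 3 of 6 lower. Leukocyte markers (Cd68, Csf1r) summed to 138 to 288 TPM and 31.3 to 221 TPM, with 0 of 5 past the threshold, and adipocyte markers (Fabp4, Pparg) to 58.2 to 152 TPM and 13.6 to 101 TPM, with 1 of 5 lower. Erythroid markers (Hbb-bs, Hba-a1) summed to 226 to 432 TPM in WT and 451 to 6179.99 TPM in MP, and 2 of 7 were higher. In bulk tissue, fewer cells of a type and less RNA per cell cannot be told apart, and the part of these cell types in the differences of Ephx2, Gpx3 and Gstt1 was not tested between WT and MP.

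Variation among tumors does not use the levels of the normal ovaries, although Ephx2 was picked with its low tumor levels known. The tested genes set beside it were filtered over all libraries, so genes expressed in WT alone can be among them. The SD of log2(TPM + 1) over the 10 tumors was 2.14 for Gstt1, 2.06 for Gsta4, 1.70 for Gsta3 and for Gstm1, 1.62 for Gstm2, 1.52 for Ephx2 and 1.31 for Gpx3, against a median of 0.861 over all tested genes. It was 0.96 for Gpx4, 0.65 for Gpx1 and 0.62 for Gstp1. Gstt1 thus varied more than 98.3% of all tested genes and Gstp1 more than 25.4%. Gsta3 differed 387-fold, Gstt1 242-fold and Gsta4 178-fold between the highest and lowest tumor, compared with 4.24-fold for Gstp1 and 4.57-fold for Gpx1. The lowest tumor of Gsta3, Gstt1 and Gsta4 was MP 3, with 5, 5 and 16 reads, and without it the folds were 122, 121 and 33.7, while that of Gstp1 was 2.20 without MP 2 and that of Gpx1 2.87 without MP 3.

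**Figure D4:**
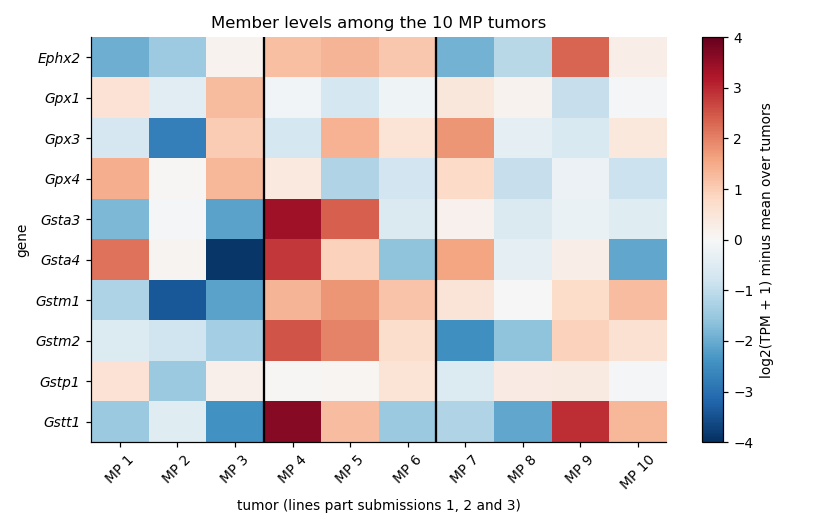
Level of each of the 10 genes in each MP tumor as log2(TPM + 1) minus the mean over the 10 tumors, from blue (low) to red (high), with lines between the 3 submissions. The 3 tumors of submission 1 are low in Gstm1, and MP 4 is high in Gsta3, Gsta4, Gstm2 and Gstt1.

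Tumors of submission 1 (MP 1 to MP 3) were compared with the later tumors (MP 4 to MP 10), to see whether the genes varied with the submission code. Of all 17277 genes, 30.1% were lower and 1.29% higher in submission 1 (limma, adjusted p of 0.05), with a median difference of -0.84. This balance turned with scaling, to 2356 higher and 1708 lower under median-of-ratios scaling and 1661 and 1377 under quantile normalization. Of the 10 genes, Gstm1 was lower and Gpx4 higher, 2 of 10 against 31.4% of all genes in either direction. Such calls were thus no more frequent among the 10 than among all genes. Gstm1 was at 251, 55.1 and 134 TPM in MP 1 to MP 3 and between 591 and 1995 TPM in the 7 later tumors. Its mean was 146 ± 98.4 TPM (SD, n = 3) against 1227 ± 468 TPM (SD, n = 7), a log2 difference of -3.21 ± 0.47 (limma, adjusted p = 0.000642). This call held under 15 of 15 alternatives, with differences of -3.72 to -1.90. The WT ovaries were of submission 1 and had 989 to 1431 TPM, within the range of the later tumors.

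Gpx4 was at 822, 313 and 764 TPM in MP 1 to MP 3, and its mean was 633 ± 279 TPM (SD, n = 3) against 255 ± 144 TPM (SD, n = 7) in later tumors, where MP 7 reached 509.7 TPM. The sets overlapped, the log2 difference was 1.36 ± 0.47 and the adjusted p was 0.0415 (limma). The Gpx4 call was lost when any 1 of MP 1, MP 3, MP 5, MP 6, MP 8, MP 9 and MP 10 was left out (adjusted p of 0.0572 to 0.159), and with no filter (adjusted p = 0.0774). Differences of the other 8 genes were not past the threshold, from -2.08 ± 1.13 for Gstt1 (adjusted p = 0.176) to 0.67 ± 0.40 for Gpx1 (adjusted p = 0.213), and that of Ephx2 was -1.56 ± 0.83 (adjusted p = 0.167). Over 15 alternatives the Ephx2 difference spanned -2.17 to -0.448. Ephx2 and Gsta3 were past the threshold in 1 alternative each, Gpx1 in 2 and the rest of these genes in none. Submission and the tumors it holds cannot be told apart, since no tumor was in more than 1 submission.

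Whether a gene tracked the steroidogenic RNA left in a tumor was asked with the median log2(TPM + 1) of the 10 steroidogenic markers over the 10 tumors. None of the 10 genes did so past the threshold (permutation test, 2-sided, smallest adjusted p = 0.376 over 10 relations). For Ephx2, Pearson's r was -0.0166 (permutation p = 0.963) and Spearman's rho 0.0061 (permutation p = 1.0), and r was -0.0135 without MP 2 and MP 9, the tumors farthest from the median, and -0.460 within submissions (exact permutation p = 0.280). For Gstm1, r was 0.653 (permutation p = 0.0376, adjusted p = 0.376) and rho 0.539 (permutation p = 0.116, adjusted p = 0.901), with r at 0.534 without those tumors and 0.571 within submissions.

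Tumors of this kind carry gains and losses of chromosomes, so each gene was also set against the level of its chromosome, taken as the median deviation of the other tested genes on it. Of 10 relations, 0 passed the adjusted threshold (permutation test, smallest adjusted p = 0.227 for Pearson's r and 0.109 for Spearman's rho), and 1 had an unadjusted p under 0.05 by Pearson's r and 2 by rho. The 2 were negative, that of Gstm1 with chromosome 3 (rho = -0.782, permutation p = 0.0109, adjusted p = 0.109; r = -0.568, permutation p = 0.0809, adjusted p = 0.227) and that of Gstm2 with chromosome 3 (rho = -0.685, permutation p = 0.0340, adjusted p = 0.170; r = -0.561, permutation p = 0.0909, adjusted p = 0.227). Without MP 2 and MP 8, r was -0.690 for Gstm1 and -0.472 for Gstm2, and within submissions -0.717 and -0.187. Gstt1 and Gpx4 lie on chromosome 10, whose level was lowest in MP 6 (-0.38 on the log2 scale), MP 5 (-0.31) and MP 8 (-0.29) and highest in MP 9 (0.27). For Gstt1, r was 0.422 (permutation p = 0.228, adjusted p = 0.408), rho 0.600 (permutation p = 0.0738, adjusted p = 0.246), r without MP 5 and MP 6 0.612 and r within submissions 0.788. For Gpx4, r was 0.571 (permutation p = 0.0870, adjusted p = 0.227), rho 0.418 (permutation p = 0.232, adjusted p = 0.350), r without MP 5 and MP 6 0.310 and r within submissions 0.635. Gstp1 and its chromosome, 19, had r = 0.646 (permutation p = 0.0442, adjusted p = 0.227) and rho = 0.321 (permutation p = 0.368, adjusted p = 0.461). Without MP 2 and MP 6 this r was -0.0608, so it rested on those tumors, although it was 0.856 within submissions (exact permutation p = 0.00694, adjusted p = 0.0694). Within submissions 2 of the 10 relations had an unadjusted p under 0.05, this one and that of Gstm1 (exact permutation p = 0.0347), and 0 passed after adjustment.

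Across tumors, 45 pairs of the 10 genes were compared, and 0 passed after adjustment (permutation test, smallest adjusted p = 0.215), with 7 pairs at an unadjusted p under 0.05. The highest r was that of Gstm2 and Gstt1, 0.7995 (permutation p = 0.00632, adjusted p = 0.215), with rho = 0.697 (permutation p = 0.0306, adjusted p = 0.230). Its r was 0.751 without MP 4 and MP 7 and 0.877 within submissions (exact permutation p = 0.0162). Ephx2 and Gstm2 had r = 0.782 (permutation p = 0.00956, adjusted p = 0.215) and rho = 0.794 (permutation p = 0.00908, adjusted p = 0.230), with r at 0.877 without MP 1 and MP 9 and 0.672 within submissions (exact permutation p = 0.192). Gpx1 and Gpx4, the peroxidase genes that were not low in all tumors, had r = 0.711 (permutation p = 0.0209, adjusted p = 0.235) and rho = 0.600 (permutation p = 0.0740, adjusted p = 0.280), with r at 0.7015 without MP 3 and MP 9 and 0.574 within submissions.

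The genes whose level over the 10 tumors was most like that of Ephx2, among 8829 tested genes with a mean of at least 10 TPM in MP, were Zfp719 (r = 0.947), Gxylt2 (r = 0.945), Fam110c (r = 0.924), Glt8d1 (r = 0.923) and Bambi (r = 0.921). They were picked as the highest of 8829 over the same 10 libraries and are given as a description. Zfp719 was at a mean of 21.8 TPM in WT and 5.26 to 21.7 TPM in MP, and Gxylt2 at 22.6 TPM in WT and 0.589 to 50.3 TPM in MP, so their tumor levels reached the WT mean or came near it, as those of Ephx2 did not.

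The pathways around these enzymes were described with 7 lists that hold 122 tested genes, none of them a member. The lists were chosen with earlier results of these data known, so their counts and p-values are given as a description. In limma, 19 of the 122 (15.6%) were lower and 1 (0.820%) was higher in MP, close to 14.3% and 2.51% of all genes, and the median difference was -0.75 against -0.58. The count of lower genes depended on the libraries. It was 7 without WT 1, 8 without WT 2 and 7 without WT 3, and it was 68 with 6 higher within submission 1, where the median over all genes was -1.44. The 1 higher gene became 2 without MP 1, MP 2, MP 5, MP 9 or MP 10, and 5 under median-of-ratios scaling.

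Epoxide hydrolases and enzymes of epoxide and eicosanoid metabolism had 7 of 19 tested genes lower and 0 higher, with a median of -1.18. Ptges, which encodes a glutathione-dependent prostaglandin E synthase, was at 86.2 to 115 TPM in WT and 0.0871 to 13.3 TPM in MP. Its difference was -5.06 ± 0.66 (limma, adjusted p = 6.7e-05), lower in 10 of 10 tumors. Cyp1b1, a cytochrome P450 that forms epoxides and hydroxylates estrogens, fell by 4.99 ± 0.97 on the log2 scale (limma, adjusted p = 0.00261), with a WT mean of 291 ± 29.7 TPM (SD, n = 3) and an MP range of 1.76 to 109.6 TPM. Cyp2s1, another P450, fell by 3.40 ± 0.99 (limma, adjusted p = 0.0285). The other 4 lower genes, named only to complete the count, were Ephx1, the microsomal epoxide hydrolase, Cyp2j6, Cyp2j9 and Alox12. Of these, Cyp2j9 was past the threshold in 24 of 24 alternatives, while the calls of the other three were lost when WT 1, WT 2 or WT 3 was left out (limma, adjusted p of 0.106 to 0.133 for Ephx1, 0.0572 to 0.0999 for Cyp2j6 and 0.153 to 0.194 for Alox12). The Ephx1 call was also lost under median-of-ratios scaling, and that of Alox12 in 14 of 24 alternatives. Ptges and Cyp1b1 were past the threshold in 24 of 24 alternatives, whereas Cyp2s1 was not when WT 1, WT 2 or WT 3 was left out (adjusted p of 0.101 to 0.136), nor with a pseudocount of 0.1 or without MP 2 and MP 10.

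Of the thioredoxin, peroxiredoxin, superoxide dismutase and catalase list, 4 of 17 were lower and 0 higher. Sod3, the extracellular superoxide dismutase, was at 58.5 to 97.05 TPM in WT and 0 to 17.1 TPM in MP, a difference of -4.57 ± 0.84 (limma, adjusted p = 0.00167). Srxn1, which encodes the sulfiredoxin that repairs oxidized peroxiredoxins, was at 75.7 to 119 TPM in WT and 0.893 to 17.7 TPM in MP, a difference of -3.88 ± 0.58 (limma, adjusted p = 0.000269). Txnip, the thioredoxin-binding protein, fell by 2.69 ± 0.56 (limma, adjusted p = 0.00443; 0.0558 without WT 3), and the peroxisomal catalase gene Cat was the other lower gene, a call lost without WT 1 (limma, adjusted p = 0.0508). Sod3 and Srxn1 were past the threshold in 24 of 24 alternatives. No peroxiredoxin or thioredoxin reductase gene passed the test.

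Glutathione synthesis, recycling and breakdown had 2 of 25 lower and 0 higher, with a median of -0.61, near that of all genes. Idh1, a cytosolic source of the NADPH that keeps glutathione reduced, was at 2535 to 2755 TPM in WT and 97.6 to 813 TPM in MP. It fell by 3.48 ± 0.54 (limma, adjusted p = 0.000408) and was past the threshold in 24 of 24 alternatives. Anpep, an aminopeptidase that takes part in glutathione breakdown outside cells, fell by 2.09 ± 0.68 (limma, adjusted p = 0.0463), a call lost without any 1 of the 3 WT or of MP 1, MP 3, MP 6, MP 7 and MP 8 (adjusted p up to 0.204), with a pseudocount of 0.1 or with no filter. Of the rate-limiting ligase, named here after its values were seen, the catalytic subunit Gclc had a difference of -1.11 ± 0.48 (limma, adjusted p = 0.120) and the modifier Gclm -0.12 ± 0.39 (limma, adjusted p = 0.843), and glutathione reductase Gsr had -0.25 ± 0.45 (limma, adjusted p = 0.711).

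The other transferases and peroxidases held few calls. Of 20 other transferase genes, 17 were tested, and Mgst2, a microsomal enzyme that can make leukotriene C4, was the 1 that fell, as it fell by 3.43 ± 1.01 (limma, adjusted p = 0.0304), while 0 were higher. Of the other peroxidases Gpx7 and Gpx8 were tested. Gpx8, an endoplasmic reticulum enzyme with no selenocysteine, fell by 2.40 ± 0.62 (limma, adjusted p = 0.0164) and lay below every WT in 9 of 10 tumors. Without WT 1, WT 2 or WT 3 neither call held (adjusted p of 0.108 to 0.154 for Mgst2 and 0.0824 to 0.0990 for Gpx8). The Mgst2 call was lost in 9 of 24 alternatives in all, which include both scalings, the pseudocount of 0.1, submission as a covariate, the replicate block and the fit without MP 2 and MP 10.

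In the NRF2 list 2 of 21 were lower and 0 higher, with a median of -0.90. Nfe2l1, a factor related to NRF2, fell by 2.91 ± 0.84 (limma, adjusted p = 0.0282), and Taldo1, transaldolase of the pentose phosphate pathway, fell by 1.41 ± 0.44 (limma, adjusted p = 0.0406). These calls were lost without WT 1, WT 2 or WT 3 (adjusted p of 0.116 to 0.120 for Nfe2l1 and 0.135 to 0.190 for Taldo1), and that of Taldo1 also without MP 4 or MP 8 (adjusted p up to 0.0536). The Taldo1 call was lost in 9 of 24 alternatives, with an adjusted p of up to 0.349, among them median-of-ratios scaling, submission 1 alone, limma-voom and no filter. The gene for NRF2 itself, Nfe2l2, had -1.14 ± 0.43 (limma, adjusted p = 0.0810; below every WT ovary in 10 of 10 tumors, as for 16.4% of all genes) and its classic target Nqo1 -1.295 ± 0.58 (limma, adjusted p = 0.131), both named after their values were seen.

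Selenoproteins and the genes of their synthesis were of interest because Gpx1, Gpx3 and Gpx4 need them. Of 21 tested, 1 was higher and 2 were lower, with a median of -0.51. Selenoh, a nucleolar selenoprotein, was at 101 to 117 TPM in WT and 264 to 653 TPM in MP, higher in 10 of 10 tumors by 1.84 ± 0.32 (limma, adjusted p = 0.00101). Selenoh was past the threshold in 24 of 24 alternatives. Lrp8, a receptor that takes up the selenium carrier selenoprotein P, fell by 2.97 ± 0.86 (limma, adjusted p = 0.0278), and Selenom fell by 1.70 ± 0.56 (limma, adjusted p = 0.0496). Both calls were lost without WT 1, WT 2 or WT 3 (adjusted p of 0.0510 to 0.157 for Lrp8 and 0.147 to 0.216 for Selenom), and that of Selenom also without MP 1, MP 3, MP 4, MP 7, MP 8 or MP 10 (adjusted p up to 0.0731). The Lrp8 call was lost in 7 of 24 alternatives, also under both scalings, with the pseudocount of 0.1 and with the replicate block, and the Selenom call in 14 of 24, also under median-of-ratios scaling, with the pseudocount of 0.1, with either other filter and without limma's trend and robust options. Of the genes for selenoprotein synthesis, some are named here after their values were seen. Sephs2 (1.04 ± 0.37, limma, adjusted p = 0.0631) and Pstk (0.90 ± 0.44, limma, adjusted p = 0.164) did not pass the test. Both lay above every WT ovary in 10 of 10 tumors, as did 3.02% of all genes. Secisbp2l (-1.73 ± 0.57, limma, adjusted p = 0.0507) did not pass it and lay below every WT ovary in 10 of 10 tumors, as did 16.4% of all genes, and Sepsecs, Eefsec and Secisbp2 did not pass it either.

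**Figure D5:**
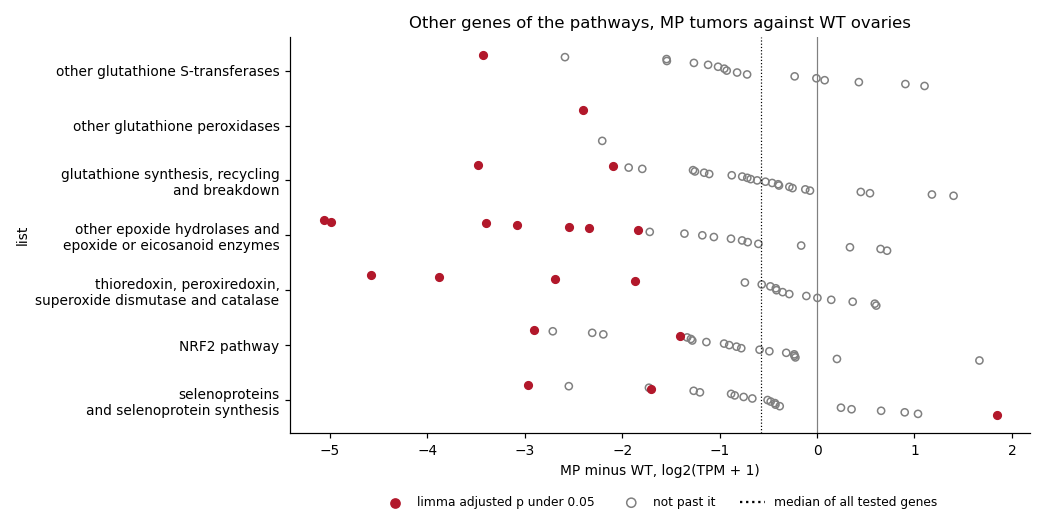
Difference between MP and WT in log2(TPM + 1) for each tested gene of the 7 pathway lists, with filled points for genes past an adjusted p of 0.05 in limma and the dotted line at -0.58, the median of all tested genes. Of 122 genes, 19 are past it on the lower side and Selenoh on the higher side.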

How the data were processed

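RNA from 3 WT ovaries and 10 MP EPO-GEMM tumors was sequenced by the authors, who deposited a table of TPM values per gene. The submitters' processing notes name FastQC 0.11.5, Trimmomatic 0.36, STAR 2.5.3a, featureCounts 1.6.3 and the mm10 (GRCm38) build, although the protocol text describes another build, counter and unit. Of the 53465 genes deposited, 96.2% had the start and end of GENCODE M21, and TPM times gene length gave whole multiples of 1 read (tolerance 0.01), from which reads and Poisson intervals were computed.

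Members and lists were chosen with earlier results of these data known. Groups came from sample titles. The WT and MP samples were taken as separate mice, and where they were not, p-values measure a spread that may be technical. limma 3.58.1 (R 4.3.3; trend and robust) was fitted to log2(TPM + 1) over 17277 genes with TPM of at least 1 in 3 libraries, with Benjamini-Hochberg adjustment over all of them. Low genes change by more than this scale shows. The fit was tested on simulated data. Submissions, taken from the sample descriptions, were compared in tumors alone, over the same 17277 genes. Relations across tumors used permutation tests with 100000 resamples, or every permutation for fewer than 10 values or within submissions, and adjustment within each family.

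Named were the members, up to 3 genes past the threshold per list and direction by size of difference, the 5 genes most like Ephx2, and Trp53 and Myc, with exceptions stated in the text. Alternatives changed the pseudocount, the filter, the scaling, the submissions, the replicate block, the test (limma-voom on recovered reads) and the libraries. The set without MP 2 and MP 10 was added after seeing the data. Sequences came from GENCODE M21 and RefSeq promoters.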

Additional observations from a re-analysis of the deposited data

Results flagged for a closer look

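In 3 of the 10 genes the highest tumor stood apart from the other 9 by a gap above Dixon's 95% critical value, which chance alone gives in about 1 of 20 groups. Ephx2 was at 24.1 TPM in MP 9, and the next tumor, MP 5, was at 11.8 TPM. Gsta3 was at 50.8 TPM in MP 4 and at 25.3 TPM in the next tumor, MP 5. Gpx1 was at 2313 TPM in MP 3 and at 1453 TPM in the next tumor, MP 1. These gaps are on the TPM scale, on which levels were skewed, and the chance rate assumes normal values. On the log2(TPM + 1) scale the gaps were 0.227 of the range for Ephx2, 0.177 for Gsta3 and 0.306 for Gpx1, all under the critical value, so none of the 3 stood apart there. On neither scale was a lowest tumor set apart in this way, and groups of 3 WT ovaries are too small for this test.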

How the results depend on the processing

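Of the 10 members, 8 kept the sign of the MP minus WT difference in 24 of 24 alternatives, while Gstp1 kept it in 21 and Gpx4 in 22. Counts across all genes moved more. Against 433 higher and 2463 lower, they were 1276 higher under median-of-ratios scaling, 1904 higher under quantile normalization, 1043 and 9504 within submission 1, 894 and 8534 with submission as a covariate, 1879 and 4042 in limma-voom on recovered reads, 680.0 higher without MP 2 and MP 10, and 65 to 637 and 604 to 3238 when 1 library was left out. For the pathway lists, against 1 and 19, they were 5 higher under median-of-ratios scaling, 6 higher under quantile normalization, 6 and 68 within submission 1, 6 and 60 with the covariate, 9 and 32 in limma-voom, 4 higher without MP 2 and MP 10, and 1 to 2 and 7 to 25 when 1 library was left out. The replicate block gave 1087 and 9803 genes, and 5 and 70 in the lists. The labels tie no WT sample to an MP sample by number, and the deviations of same-numbered samples correlated at -0.0963, -0.0214 and 0.00118, so the numbers give no pairing. Within tumors, counts for submission 1 against later (223 higher, 5195 lower) were 2356 and 1708 under median-of-ratios scaling, 1661 and 1377 under quantile normalization, 614 higher in limma-voom, and 46 to 343 and 2830 to 5565 when 1 tumor was left out. Differences that turned positive there were those of Gsta4 (0.42), Gstm2 (0.029), Gstp1 (0.97) and Gpx3 (0.12) under median-of-ratios scaling, Gsta4 (0.21) under quantile normalization, Gstp1 (0.11) in limma-voom, Gstp1 (0.28) without MP 2 and Gsta4 (0.90) without MP 3. Over all left-out tumors the range was -0.75 to 0.28 for Gstp1 and -2.12 to 0.90 for Gsta4. Among pairs, 1 passed under median-of-ratios scaling, Gpx1 and Gpx4 (r = 0.905, permutation test, adjusted p = 0.00855). The cause of these shifts was not tested. Depth limits the low values, since Ephx2 in MP 7 rested on 2 reads.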
